A study of Mus musculus with 12 samples.

Results

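*Nnt* and 9 other genes for enzymes of mitochondrial redox balance were followed in mouse MLL-AF9 leukemia: *Idh2*, *Me2*, *Sod2*, *Prdx3*, *Prdx5*, *Txn2*, *Txnrd2*, *Gsr* and *Gpx4*. They were chosen by name, and all 10 had a row among the 25263 gene symbols of the expression table. In this model of acute leukemia the oncogene MLL-AF9 (MA9) joins part of MLL, a regulator of chromatin, to AF9. Leukemic cells from the bone marrow of adult mice had either a wild type Hoxa cluster (WT, strain C57BL/6) or a Hoxa cluster flanked by loxP sites (floxed, strain C57BL/6J). The Hoxa cluster holds homeobox genes on which such leukemias depend, and Cre recombinase deletes it where it is floxed. After a night in culture with cytokines (SCF, GM-CSF, IL-3 and IL-6) the cells received a retrovirus, either a GFP control or one with Cre, and those with high GFP were sorted. Each of the 4 groups has 3 libraries. WT cells are called WT-GFP or WT-Cre by their virus, and floxed cells are called Hoxa-flox with the control and Hoxa-del with Cre. The labels do not say how many leukemias or mice the libraries came from. Genotype, strain and leukemia differed together and cannot be told apart.

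Mitochondria keep a pool of NADPH that pays for the removal of peroxide. NNT, a proton pump of the inner membrane, makes NADPH from NADH with the force of the proton gradient, while the isocitrate dehydrogenase IDH2 and the malic enzyme ME2 draw reducing power from metabolites of the matrix. SOD2 turns superoxide into hydrogen peroxide, which the peroxiredoxins PRDX3 and PRDX5 reduce with electrons from thioredoxin 2 (TXN2) and its reductase TXNRD2. The glutathione branch uses glutathione reductase (GSR) and, for lipid peroxides, GPX4. C57BL/6J mice are known for a loss of several *Nnt* exons and lack a working NNT protein. Related C57BL/6 stocks carry the intact gene, and the WT labels name no substrain.

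Levels are given in FPKM, which counts sequenced fragments relative to transcript length and library size and so allows genes to be compared with each other. Changes are differences in log2(FPKM + 1), tested with limma over the 13169 genes that averaged 1 FPKM or more; a gene passed at an adjusted p under 0.05. All 10 genes were tested. Estimated depth ran from 3.94 M fragments (WT-Cre 2) to 18.5 M (WT-GFP 3). *Hoxa9*, a gene of the targeted cluster, read 217 to 257 FPKM in Hoxa-flox and 83.5 to 119 in Hoxa-del, and 152 to 183 in the WT libraries. The floxed libraries fell into 2 sets that cross the virus groups. *Mki67*, the gene of the proliferation marker Ki-67, was low in Hoxa-del 2 and in the libraries Hoxa-flox 1 and 2, at 14.9 to 17.8 FPKM. It was high in the libraries Hoxa-del 1 and 3 and in Hoxa-flox 3, at 84.6 to 93.2 FPKM, and the WT libraries lay between 65.1 and 78.2. The 10 genes are therefore given library by library (*Me2* in WT as a range). Other genes are given mostly as group means, which can hide a split between the sets.

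*Nnt* had the largest difference between genotypes of the 10 genes. It read 32.4, 34.5 and 30.8 FPKM in WT-GFP and 34.4, 33.9 and 36.3 in WT-Cre. The floxed cells had far less, with 12.2, 12.04 and 17.4 FPKM in Hoxa-flox and 13.9, 10.1 and 12.7 in Hoxa-del. Every floxed library lay below every WT library, and the highest floxed value, Hoxa-flox 3, was still well under the lowest WT value. In Hoxa-flox the mean was 42.7% of that in WT-GFP (13.9 ± 3.06 against 32.5 ± 1.86 FPKM, SD, n = 3; log2 difference -1.19, SE 0.16, adjusted p = 0.000259, limma). In Hoxa-del it was 35.1% of that in WT-Cre (12.2 ± 1.95 against 34.8 ± 1.27 FPKM, SD, n = 3; log2 difference -1.45, SE 0.16, adjusted p = 6.44e-05, limma). These comparisons share no library. The order of the group means was WT-Cre, WT-GFP, Hoxa-flox and Hoxa-del, and neighbours with the same genotype overlapped.

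The lower *Nnt* level held in both sets of floxed libraries. With only the low *Mki67* libraries the log2 difference was -1.35 against WT-GFP and, with Hoxa-del 2 alone, -1.69 against WT-Cre. With only the high *Mki67* libraries it was -0.86 with Hoxa-flox 3 alone against WT-GFP, and -1.33 against WT-Cre. *Nnt* passed in the fits of Hoxa-flox 1 and 2 and of Hoxa-del 1 and 3. Within the floxed cells *Nnt* was lower in the low *Mki67* libraries (10.1 to 12.2 FPKM) than in the high ones (12.7 to 17.4), a gap much smaller than that to the WT libraries. Its values rest on an estimated 224 fragments in Hoxa-del 2 to 1973 in WT-GFP 3.

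The locus of *Nnt* lies on the minus strand of chromosome 13, 119335448 to 119408997 (GRCm38). The GRCm38 reference is itself a C57BL/6J genome. The longest coding model of *Nnt* in GENCODE M21 has 17 exons and a coding length of 2505 bases. Exons lost in C57BL/6J are not part of this genome, so the FPKM describe only the exons that both kinds of C57BL/6 mice keep, and the table gives no value per exon. The deletion itself was therefore not measured, and neither was the NNT protein. The floxed cells still had *Nnt* RNA at a level between 10.1 and 17.4 FPKM. Of the coding genes within 500 kb of *Nnt*, 4 were tested, all on the same side of it, and 0 passed in either comparison of the genotypes. The nearest, *Paip1*, a partner of the poly(A)-binding protein, averaged 21.3 and 23.1 FPKM in the WT groups and 17.9 and 19.3 in the floxed groups (control virus first). The log2 difference of *Paip1* was -0.26 with the control virus and -0.27 with Cre (adjusted p = 0.426 and 0.402, limma). In the same order *Zfp131* was at -0.63 and -0.49, *4833420G17Rik* at -0.14 and -0.02 and *Hmgcs1* at 0.10 and 0.23. Over all tested genes 26.8% and 27.2% passed, so a count over 4 genes cannot show whether the difference is confined to *Nnt*. The window of 500 kb was chosen after the values of *Nnt* were seen.

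**Figure D1:**
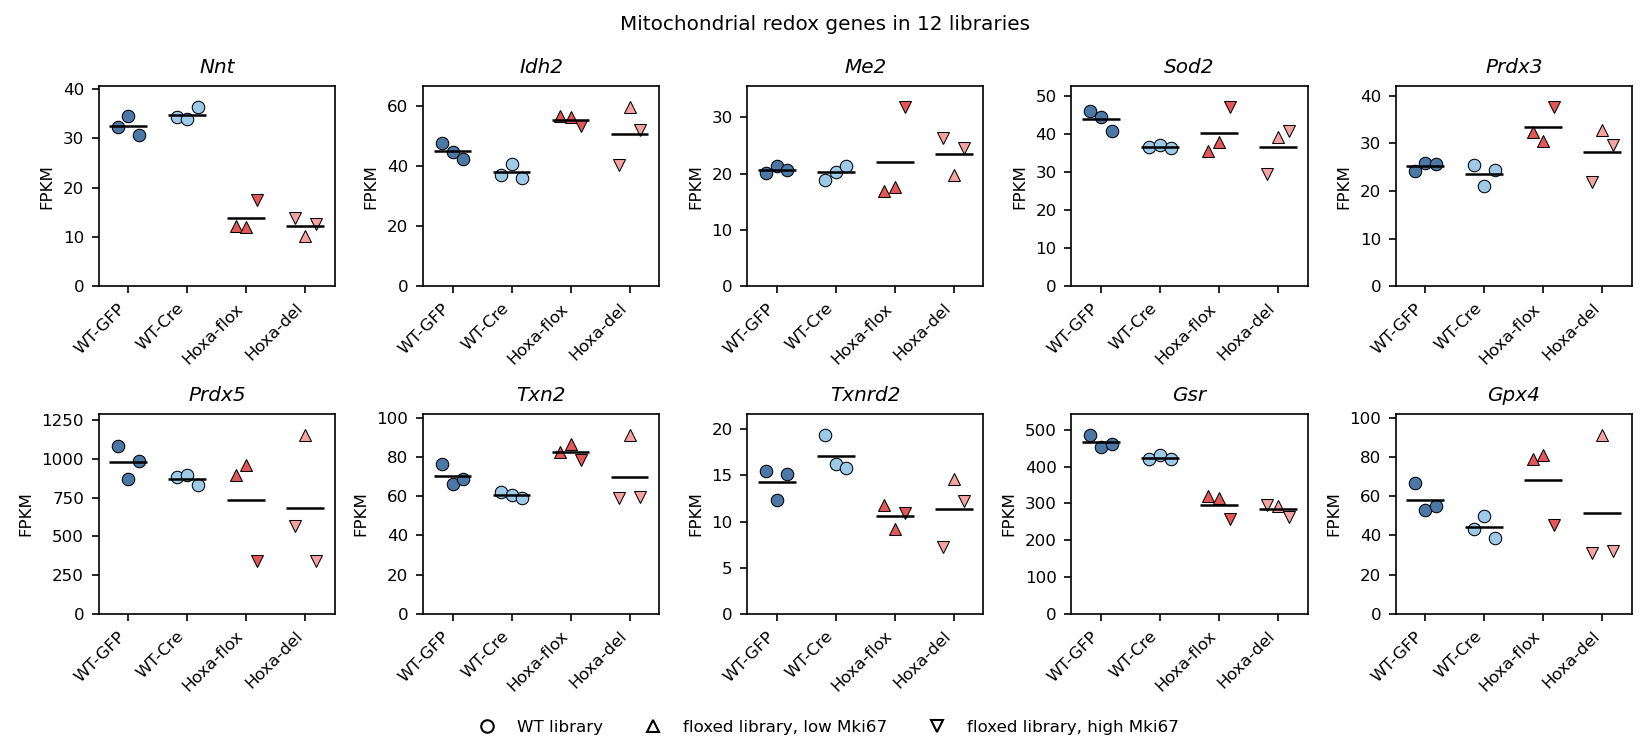
FPKM of the 10 genes in 12 libraries; each point is a library, each bar a group mean (n = 3), and triangles mark the 2 sets of floxed libraries. *Nnt* and *Gsr* in all floxed libraries lie below all WT libraries, while *Prdx5* and *Gpx4* split the floxed libraries by set.

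*Idh2* and *Me2*, the other sources of mitochondrial NADPH among the genes followed, did not pass in either comparison of the genotypes in the main fit. *Idh2* (chromosome 7, 80094846 to 80115392) read 47.7, 44.9 and 42.6 FPKM in WT-GFP and 37.1, 40.9 and 36.2 in WT-Cre. Levels were 56.8, 56.5 and 53.5 FPKM in Hoxa-flox and 40.5, 59.7 and 52.3 in Hoxa-del. All Hoxa-flox libraries were above all WT-GFP libraries, whereas Hoxa-del 1 lay inside the range of WT-Cre. The log2 difference was 0.30 with the control virus and 0.39 with Cre (SE 0.14 each; adjusted p = 0.1495 and 0.0637, limma). It passed against WT-Cre without Hoxa-del 1 (0.54, adjusted p = 0.00736, limma), with upper-quartile rescaling (adjusted p = 0.0491) and with array weights (adjusted p = 0.0485). It did not pass without Hoxa-del 2 (0.27, adjusted p = 0.135, limma) or fitted on Hoxa-del and WT-Cre alone (adjusted p = 0.186). Against WT-GFP it passed with array weights (0.36, adjusted p = 0.000164) and with only the low *Mki67* libraries (0.33, adjusted p = 0.00610).

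*Me2* read between 18.9 and 21.4 FPKM in the 6 WT libraries. The floxed libraries lay on both sides of this range. Hoxa-flox read 16.9, 17.6 and 31.8 FPKM, and Hoxa-del 26.3, 19.8 and 24.5. The *Me2* groups overlapped, with log2 differences of 0.03 and 0.20 from WT-GFP and WT-Cre (adjusted p = 0.926 and 0.520, limma). Its direction against WT-GFP depended on the set, at -0.25 with the low *Mki67* libraries and 0.60 with Hoxa-flox 3 alone. The first of these passed (adjusted p = 0.0181, limma), as did -0.22 with array weights (adjusted p = 0.00942, limma). Against WT-Cre the high *Mki67* libraries gave 0.32, which passed (adjusted p = 0.0171, limma).

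The summed FPKM of *Nnt*, *Idh2* and *Me2* came to 98.3 ± 3.78, 93.1 ± 2.48, 91.6 ± 9.58 and 86.6 ± 5.11 in WT-GFP, WT-Cre, Hoxa-flox and Hoxa-del (SD, n = 3). The make-up of the sum differed. *Nnt* held 33.1% ± 0.977 and 37.4% ± 1.599 of the sum in WT-GFP and WT-Cre, but 15.1% ± 1.67 and 14.2% ± 2.99 in Hoxa-flox and Hoxa-del. The highest share in a floxed library was 17.2% and the lowest in a WT library 32.4%. The share of *Idh2* was 45.8% and 40.9% in the WT groups and 61.2% and 58.4% in the floxed groups. The FPKM of *Nnt* were 0.723 times those of *Idh2* in WT-GFP and 0.919 times in WT-Cre, against 0.251 in Hoxa-flox and 0.252 in Hoxa-del. These shares follow from the levels above and were not tested on their own.

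**Figure D2:**
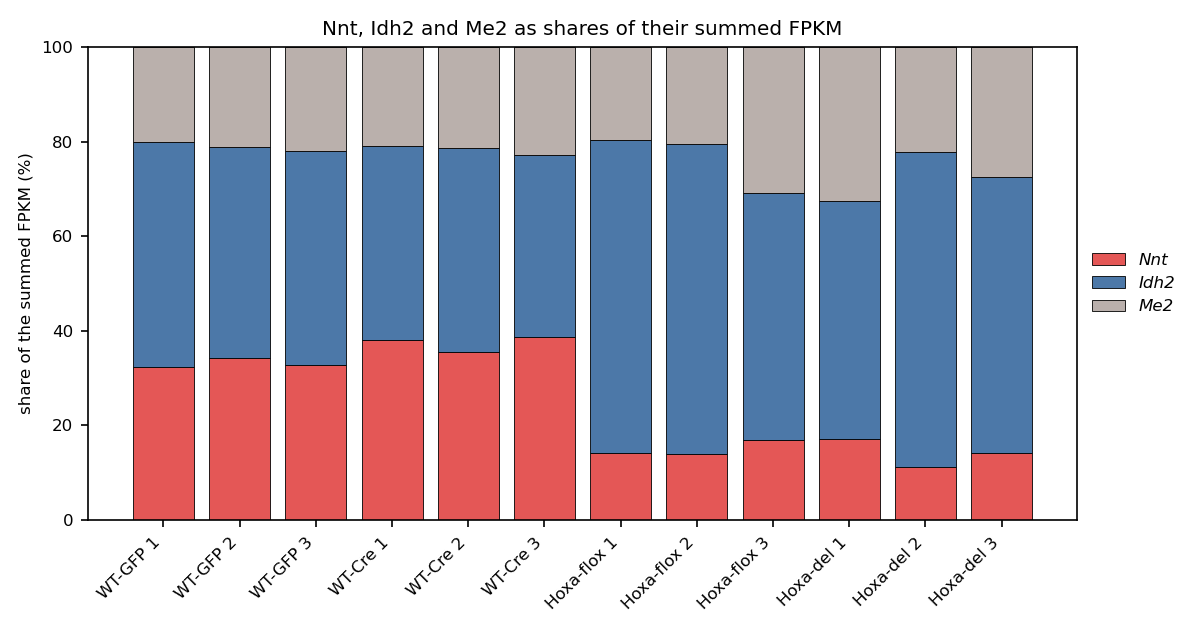
Shares of *Nnt*, *Idh2* and *Me2* in their summed FPKM (vertical axis, percent) for each of the 12 libraries. The *Nnt* share is 32.4% or more in the WT libraries and 17.2% or less in the floxed libraries.

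*Sod2*, the superoxide dismutase of the matrix (chromosome 17, 13006846 to 13040063), did not pass in either comparison of the genotypes. It read 46.1, 44.4 and 40.7 FPKM in WT-GFP and 36.6, 37.0 and 36.2 in WT-Cre. Hoxa-flox had 35.5, 37.9 and 46.9 FPKM and Hoxa-del 29.5, 39.0 and 40.6. The groups compared between genotypes overlapped. The log2 difference was -0.13 against WT-GFP (95% interval -0.46 to 0.20) and -0.02 against WT-Cre (-0.35 to 0.30), with adjusted p = 0.570 and 0.935 (limma). Against WT-GFP *Sod2* passed with array weights (-0.16, adjusted p = 0.0403, limma) and with only the low *Mki67* libraries (-0.24, adjusted p = 0.0157, limma). With Hoxa-flox 3 alone it was 0.10.

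Among the peroxiredoxins, *Prdx5* was the most abundant member of all, at percentile 99.5 of the tested genes by its mean, and had the largest standard error of the 10 in the fit. It read 1084, 869 and 986 FPKM in WT-GFP and 885, 897 and 833 in WT-Cre. In Hoxa-flox it read 897, 961 and 344 FPKM, and in Hoxa-del 567, 1153 and 339. The 3 low *Mki67* floxed libraries lay within or above the WT range, and the 3 high *Mki67* ones (339 to 567 FPKM) lay below every WT library. The mean of the first set was 2.41 times that of the second. Over all floxed libraries *Prdx5* did not pass: the log2 difference was -0.55 from WT-GFP and -0.52 from WT-Cre (SE 0.45 each; adjusted p = 0.411 and 0.430, limma). With only the high *Mki67* libraries it was -1.50 from WT-GFP (Hoxa-flox 3 alone) and -0.99 from WT-Cre. The latter passed (adjusted p = 0.00485, limma). With only the low *Mki67* libraries the difference was -0.07 from WT-GFP (adjusted p = 0.585, limma) and, with Hoxa-del 2 alone, 0.40 from WT-Cre. Leaving out Hoxa-flox 3 alone moved the first difference from -0.55 to -0.07, and leaving out Hoxa-del 3 moved the second from -0.52 to -0.11. The locus of *Prdx5* (chromosome 19, 6906697 to 6910106) overlaps *Trmt112* on the other strand, which averaged 8.43 to 12.1 FPKM in the 4 groups. The sources used here do not say whether counting used the strand, and the part of *Trmt112* reads in the *Prdx5* values was not tested.

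*Prdx3*, the other matrix peroxiredoxin (chromosome 19, 60864051 to 60874556), was far less abundant. It read 24.1, 25.8 and 25.7 FPKM in WT-GFP and 25.4, 21.1 and 24.4 in WT-Cre. In Hoxa-flox it read 32.3, 30.4 and 37.5 FPKM, and in Hoxa-del 21.8, 32.8 and 29.6. All Hoxa-flox libraries were above WT-GFP, but the log2 difference of 0.39 (SE 0.16) missed the threshold (adjusted p = 0.0925, limma). It passed with array weights (0.26, adjusted p = 0.00362, limma) and with only the low *Mki67* libraries (0.30, adjusted p = 0.0180, limma). Against WT-Cre the difference was 0.23 (adjusted p = 0.320, limma), with Hoxa-del 1 inside the WT-Cre range. The FPKM of *Prdx5* were 33.7 to 44.99 times those of *Prdx3* in the WT libraries and 9.16 to 35.1 times in the floxed libraries.

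*Txn2* and *Txnrd2*, which feed electrons to the peroxiredoxins, pointed in opposite directions and did not pass in the main fit. *Txn2* (chromosome 15, 77915047 to 77929006) read 76.3, 66.2 and 68.9 FPKM in WT-GFP and 62.3, 60.8 and 59.1 in WT-Cre. It read 82.5, 86.8 and 78.3 FPKM in Hoxa-flox and 58.9, 91.1 and 59.5 in Hoxa-del. Hoxa-del 2 thus stood with the Hoxa-flox libraries, and Hoxa-del 1 and 3 with WT-Cre. The log2 difference was 0.23 with the control virus and 0.17 with Cre (adjusted p = 0.344 and 0.488, limma). Against WT-GFP *Txn2* passed with array weights (0.31, adjusted p = 0.000365, limma) and with only the low *Mki67* libraries (0.26, adjusted p = 0.0140, limma). Against WT-Cre it was 0.58 with Hoxa-del 2 alone and -0.04 with Hoxa-del 1 and 3.

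*Txnrd2* (chromosome 16, 18426384 to 18479073) was the least abundant of the 10. It read 15.4, 12.4 and 15.1 FPKM in WT-GFP and 19.3, 16.3 and 15.8 in WT-Cre. Values were 11.8, 9.18 and 10.97 FPKM in Hoxa-flox and 7.27, 14.6 and 12.2 in Hoxa-del. Each floxed group lay below the WT group with the same virus, with log2 differences of -0.40 and -0.60 (SE 0.21 each; adjusted p = 0.202 and 0.0620, limma). The second rested on single libraries: it was -0.79 without Hoxa-del 2, which passed (adjusted p = 0.0157, limma), and -0.33 without Hoxa-del 1, which did not (adjusted p = 0.158, limma). It passed with array weights (-0.76, adjusted p = 0.0220) and not when fitted on Hoxa-del and WT-Cre alone (adjusted p = 0.151). The difference from WT-GFP passed with array weights (-0.53, adjusted p = 0.00129, limma) and with only the low *Mki67* libraries (-0.42, adjusted p = 0.0337, limma).

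*Gsr* was the second member that passed. It read 485, 454 and 463 FPKM in WT-GFP and 419.9, 431 and 419.8 in WT-Cre. Hoxa-flox read 319, 315 and 256 FPKM and Hoxa-del 296, 293 and 263. As with *Nnt*, the 6 floxed libraries lay below the 6 WT libraries without overlap. The mean in Hoxa-flox was 63.5% of that in WT-GFP (297 ± 34.9 against 467 ± 16.2 FPKM, SD, n = 3; log2 difference -0.66, SE 0.14, adjusted p = 0.00500, limma). In Hoxa-del it was 67.0% of that in WT-Cre (284 ± 18.3 against 424 ± 6.40 FPKM, SD, n = 3; log2 difference -0.58, SE 0.14, adjusted p = 0.0107, limma). Fitted on Hoxa-del and WT-Cre alone, *Gsr* did not pass (adjusted p = 0.0707, limma). With only low or only high *Mki67* libraries the log2 difference was -0.56 or -0.86 against WT-GFP and -0.53 or -0.60 against WT-Cre. Of these, -0.86 rests on Hoxa-flox 3 alone and -0.53 on Hoxa-del 2 alone, and *Gsr* passed in the other fits.

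The table holds 2 rows named *Gsr*, and the higher one was used. The lower row read 12.4 to 15.6 FPKM in 5 of the floxed libraries, 36.8 in Hoxa-del 1 and 14.95 to 40.6 in the WT libraries, so its genotypes overlapped. The gene lies on chromosome 8, 33652523 to 33698163. A small nucleolar RNA gene, *Gm24727*, lies within it on the same strand and had a row of its own that averaged 881 and 909 FPKM in the WT groups and 398 and 324 in the floxed groups. Whether reads of *Gm24727* entered the *Gsr* row was not tested, so the level of *Gsr* need not be that of its mRNA alone.

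*Gpx4* and *Txnrd2* encode selenoproteins: an in-frame TGA that elsewhere ends translation is read as selenocysteine at their active sites. The annotated codon lies in exon 3 of 7 of the longest *Gpx4* model (chromosome 10, 80054737 to 80054739) and in exon 17 of 17 of a *Txnrd2* model (chromosome 16, 18477772 to 18477774). Both windows are shown because they mark the feature that sets these members apart from the other 8. They are read 5′ to 3′ on the coding strand from the GENCODE M21 transcripts, with the selenocysteine codon in capitals.
Gpx4: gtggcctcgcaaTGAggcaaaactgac
Txnrd2: gtgactggttgcTGAggctaagtcacc

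The shared codon did not come with a shared pattern. *Gpx4* read 66.7, 52.8 and 54.9 FPKM in WT-GFP and 43.4, 49.8 and 38.9 in WT-Cre. In Hoxa-flox it read 78.9, 80.7 and 45.2 FPKM, and in Hoxa-del 31.0, 91.0 and 32.2. Like *Prdx5*, it split the floxed libraries: the low *Mki67* set (78.9 to 91.0 FPKM) lay above every WT library, and the high *Mki67* set (31.0 to 45.2) in the lower part of the WT range or below it. The mean of the first set was 2.31 times that of the second. Over all floxed libraries the log2 difference was 0.19 from WT-GFP and 0.04 from WT-Cre (SE 0.36 each; adjusted p = 0.751 and 0.949, limma). With only the low *Mki67* libraries it was 0.46 against WT-GFP (adjusted p = 0.0145, limma), and with Hoxa-flox 3 alone it was -0.35. Against WT-Cre it was 1.04 with Hoxa-del 2 alone and -0.46 with Hoxa-del 1 and 3, which passed (adjusted p = 0.0221, limma).

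Seen together, 2 of the 10 genes passed in Hoxa-flox against WT-GFP and 2 in Hoxa-del against WT-Cre, *Nnt* and *Gsr* both times and both lower. Over all tested genes 26.8% and 27.2% passed, so the count for the 10 genes is near the background. The groups did not overlap for 6 genes with the control virus (*Idh2*, *Prdx3* and *Txn2* higher, *Nnt*, *Gsr* and *Txnrd2* lower) and for 3 with Cre (*Nnt*, *Gsr* and *Txnrd2*, all lower). Among all tested genes 47.2% (23.9% higher, 23.3% lower) and 41.3% (20.7% in each direction) did not overlap. Split by direction, 13% of all tested genes passed as higher and 14.2% as lower in Hoxa-del against WT-Cre. At an unadjusted p under 0.05 the members numbered 3 and 4, against 38.4% and 38.6% of all genes. The median log2 difference of the 10 was -0.05 and 0.01, beside 0.00060 and 0.0038 over all tested genes. The members' counts depended on the sets of floxed libraries. With only the low *Mki67* libraries 9 of 10 passed against WT-GFP and 7 against WT-Cre, where 56.4% and 57.6% of all tested genes passed. With only the high *Mki67* libraries 5 and 6 passed, against 42.7% and 45.7% of all tested genes. *Nnt* and *Gsr* were lower and passed in all 4 of these fits. *Prdx3* was higher and passed in 3 of them. Since the same libraries defined the sets, p-values within a set may be too small, and an arm with 1 library is assumed to vary like the others. With array weights the counts were 9 and 5, against 69.8% and 36.5% of all tested genes. Fitted on Hoxa-del and WT-Cre alone, 1 of the 10 passed (*Nnt*), against 18.2% of all genes.

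**Figure D3:**
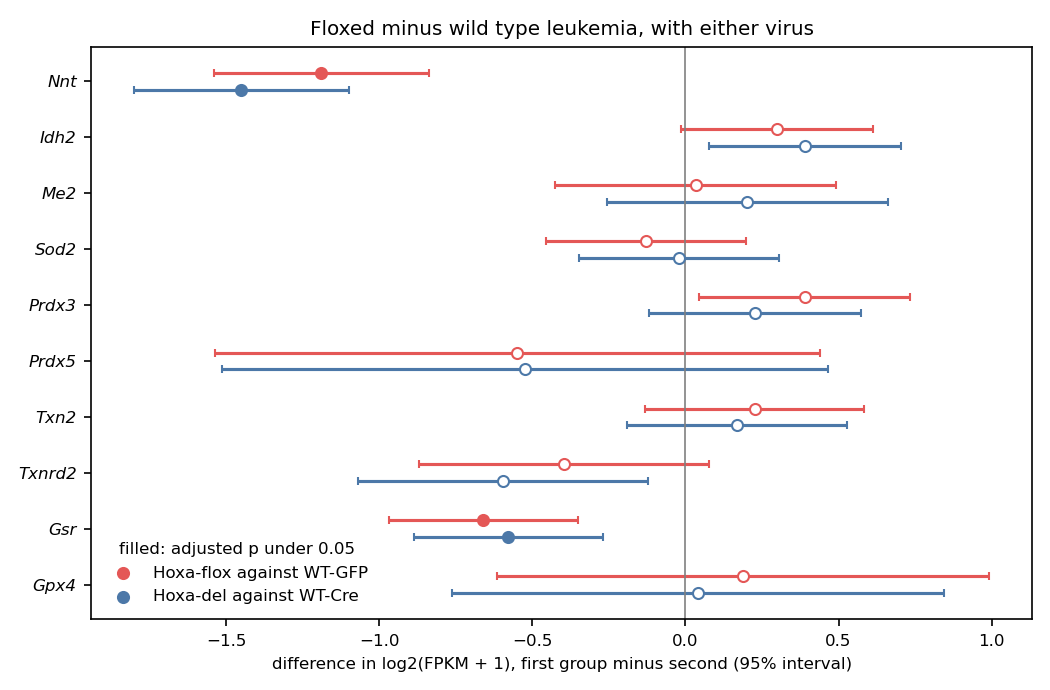
Difference in log2(FPKM + 1) between floxed and WT groups with the same virus (horizontal axis), with 95% intervals from limma; filled points passed. The points for *Nnt* (-1.19 and -1.45) and *Gsr* (-0.66 and -0.58) are filled.

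Cre left the 10 genes without a call in either genotype. *Hoxa9* RNA remained in Hoxa-del (83.5 to 119 FPKM, against 217 to 257 in Hoxa-flox), so these libraries need not describe a full loss of the cluster. In Hoxa-del against Hoxa-flox 0 of 10 passed (limma; 0 at an unadjusted p under 0.05), and the groups overlapped for all 10. Over all tested genes 0.0304% passed, 6.27% had an unadjusted p under 0.05 and 6.39% did not overlap. *Nnt* differed by -0.16 on the log2 scale (95% interval -0.51 to 0.19, adjusted p = 0.771, limma), an interval that holds differences of up to 0.51 lower. *Gsr* differed by -0.06 (-0.37 to 0.25). The widest intervals were those of *Prdx5* (-0.14, from -1.13 to 0.85) and *Gpx4* (-0.54, from -1.34 to 0.26), whose means differed most between the sets. With the set as a term *Prdx5* came to 0.33, the opposite sign, and 0 of 10 passed. Without Hoxa-del 2, *Gpx4* (-1.04) and *Txn2* (-0.47) passed (adjusted p = 0.0452 and 0.0441, limma), as did 5.98% of all tested genes. With array weights 4 of the 10 passed, against 39.3% of all tested genes. In the low *Mki67* set *Nnt* differed by -0.24 between Hoxa-del and Hoxa-flox and in the high *Mki67* set by -0.37.

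In WT cells, where Cre has no floxed cluster to act on, 0 of 10 passed as well (limma; 0 at an unadjusted p under 0.05), against 0.0152% of all tested genes (2.37% unadjusted). *Nnt* differed by 0.10 between WT-Cre and WT-GFP (95% interval -0.25 to 0.45). The groups did not overlap for 6 genes: *Idh2*, *Sod2*, *Txn2*, *Gsr* and *Gpx4* were lower with Cre and *Txnrd2* was higher, against 25.7% of all tested genes without overlap (9.31% higher, 16.3% lower). These shifts were small, with means in WT-Cre of 75.7% (*Gpx4*) to 90.6% (*Gsr*) of WT-GFP for the lower genes. The change with Cre was then compared between the genotypes, and 0 of 10 differed (interaction, limma; 0 at an unadjusted p under 0.05), against 0.00759% of all tested genes (2.46% unadjusted). With array weights 2 of the 10 did, *Me2* and *Gpx4*, against 26.2% of all tested genes. For *Nnt* the difference of the changes was -0.26 (SE 0.23, adjusted p = 0.9997, limma).

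The 2 sets of floxed libraries did not overlap for 6 of the 10 genes, and for 54.8% of all tested genes (31.7% higher in the low *Mki67* set, 23.1% in the high one), so the count for the 10 genes is near the background. *Idh2*, *Prdx5*, *Txn2* and *Gpx4* were higher in the low *Mki67* set and *Nnt* and *Me2* in the high one. *Sod2*, *Prdx3*, *Txnrd2* and *Gsr* overlapped between the sets. The sets come from the first principal component of the same table, so these values are a description and were not tested. Across the 12 libraries, *Gpx4* and *Txn2* had r = 0.89 and *Prdx5* and *Me2* had r = -0.82, again as a description of libraries that share genotype and set.

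**Figure D4:**
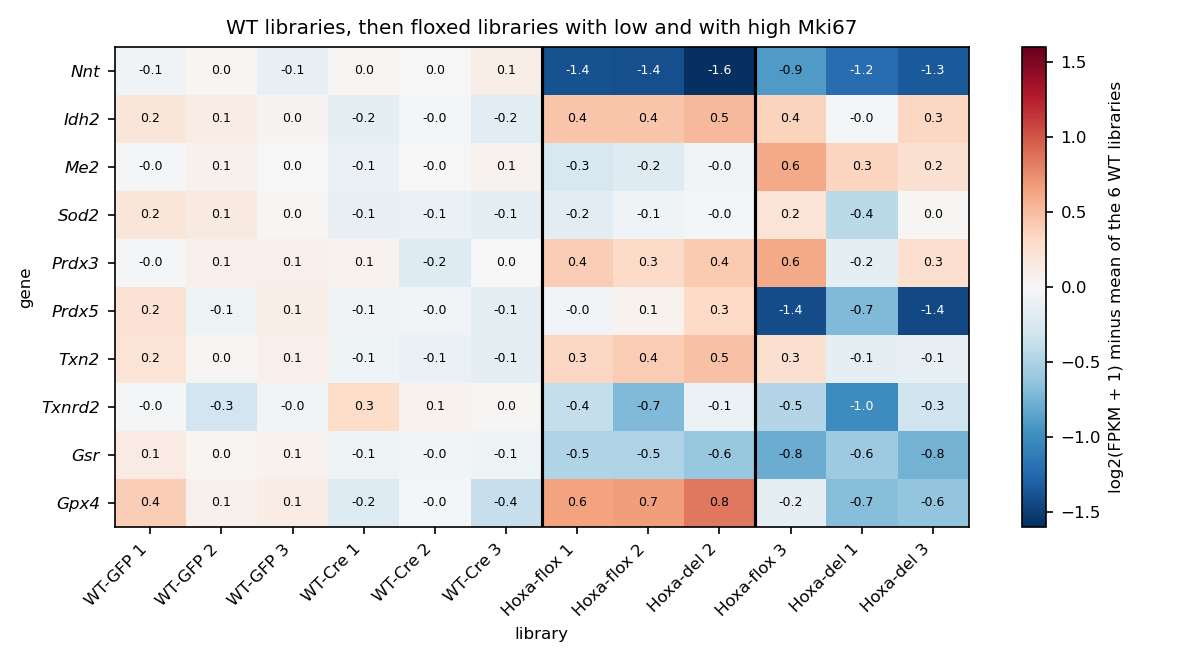
log2(FPKM + 1) of each gene (rows) in each library (columns) minus its mean over the 6 WT libraries; vertical lines part the WT libraries, the low *Mki67* and the high *Mki67* floxed libraries. *Nnt* and *Gsr* are below 0 in all 6 floxed columns, while *Gpx4* and *Prdx5* differ between the 2 blocks.

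The redox genes around the 10 gave a mixed picture in the comparison of Hoxa-flox with WT-GFP, in which 13.3% of all tested genes were higher and 13.5% lower. Among other genes of mitochondrial NADPH pathways, not all of which make NADPH themselves, 2 of 6 tested were higher and 0 lower. The 2 were *Mthfd1l* (28.8 ± 1.98 against 18.1 ± 0.338 FPKM), a folate enzyme, and the low *Mthfd2l* (2.14 ± 0.382 against 0.130 ± 0.0884). Both were also higher in Hoxa-del than in WT-Cre, where *Shmt2*, the mitochondrial serine hydroxymethyltransferase, joined them. Among other peroxide, thiol and glutathione genes listed as mitochondrial, not all of them confined to mitochondria, 5 of 14 were lower and 1 higher. The 5 included *Oxr1*, named for oxidation resistance (11.3 ± 3.67 against 48.3 ± 0.3625 FPKM), the peroxiredoxin *Prdx6* (126 ± 8.24 against 210.5 ± 8.51) and sulfiredoxin *Srxn1*, which repairs overoxidized peroxiredoxins (10.8 ± 1.47 against 22.1 ± 5.25).

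Outside mitochondria the genes of NADPH pathways, again not all makers of NADPH, split as well, with 4 of 10 lower and 2 higher. *Rpe* of the pentose phosphate pathway averaged 29.7 ± 8.40 against 70.05 ± 3.42 FPKM and *Nadk*, the cytosolic NAD kinase, 50.4 ± 0.689 against 79.8 ± 3.54. The cytosolic malic enzyme *Me1* was higher (3.98 ± 1.57 against 0.0608 ± 0.01825 FPKM). Of the peroxide, thiol and glutathione genes listed outside mitochondria, 5 of 16 were lower and 2 higher. Heme oxygenase *Hmox1* averaged 24.6 ± 5.76 against 140 ± 11.3 FPKM, while the peroxiredoxins *Prdx4* (20.9 ± 1.89 against 7.65 ± 1.03) and *Prdx2* (76.9 ± 4.21 against 46.3 ± 2.47) were higher.

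Among regulators of the oxidative stress response, 2 of 9 were lower and 0 higher. *Nfe2l2* encodes NRF2, an activator of antioxidant genes, and averaged 18.7 ± 1.24 against 35.7 ± 0.707 FPKM (log2 difference -0.90, SE 0.10, adjusted p = 6.55e-05, limma). Its opponent *Bach1*, a repressor of the same genes, averaged 24.3 ± 0.613 against 37.6 ± 1.13 FPKM (log2 difference -0.61, SE 0.10, adjusted p = 0.000838, limma). Both were also lower in Hoxa-del than in WT-Cre, at -0.89 and -0.70 (adjusted p = 7.30e-05 and 0.000339, limma). In neither comparison did the groups overlap for these genes.

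Of 9 tested genes for selenium use, 5 were higher in Hoxa-flox than in WT-GFP and 4 in Hoxa-del than in WT-Cre, with 0 lower in both, and the others did not pass. Over all tested genes 13.3% were higher and 13.5% lower with the control virus, and 13% and 14.2% with Cre. Examples are *Sepp1*, the selenium carrier selenoprotein P (52.1 ± 7.80 against 24.8 ± 0.553 FPKM), and *Selt*, a selenoprotein of the endoplasmic reticulum (82.4 ± 33.2 against 31.8 ± 1.38). *Pstk*, a kinase that prepares the selenocysteine tRNA, averaged 9.98 ± 2.02 against 5.17 ± 0.966 FPKM and passed only with the control virus. Of 8 ferroptosis genes, 2 were lower, *Aifm2* (11.8 ± 4.35 against 27.1 ± 2.86 FPKM), which guards membranes beside GPX4, and the lipoxygenase *Alox5* (11.9 ± 3.94 against 45.5 ± 3.74).

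Of 19 genes of mitochondrial content and biogenesis, 4 were higher and 0 lower in Hoxa-flox against WT-GFP, and 6 and 0 in Hoxa-del against WT-Cre. Over all tested genes 13.3% were higher and 13.5% lower in the first comparison, and 13% and 14.2% in the second. The part of mitochondrial content in the level of *Nnt* was not tested. The mitochondrial DNA helicase *Peo1* averaged 7.44 ± 0.129 against 2.17 ± 0.229 FPKM, the outer membrane channel *Vdac1* 117 ± 3.03 against 78.1 ± 3.01 and the chaperonin *Hspe1* 44.8 ± 18.6 against 23.8 ± 0.752. Of 20 genes of the tricarboxylic acid cycle, 1 was higher in both comparisons, pyruvate carboxylase *Pcx* (3.73 ± 0.550 against 2.13 ± 0.297 FPKM), and 0 were lower. With Cre, in floxed or in WT cells, 0 genes of these 9 lists passed, beside 0.0304% and 0.0152% of all tested genes.

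**Figure D5:**
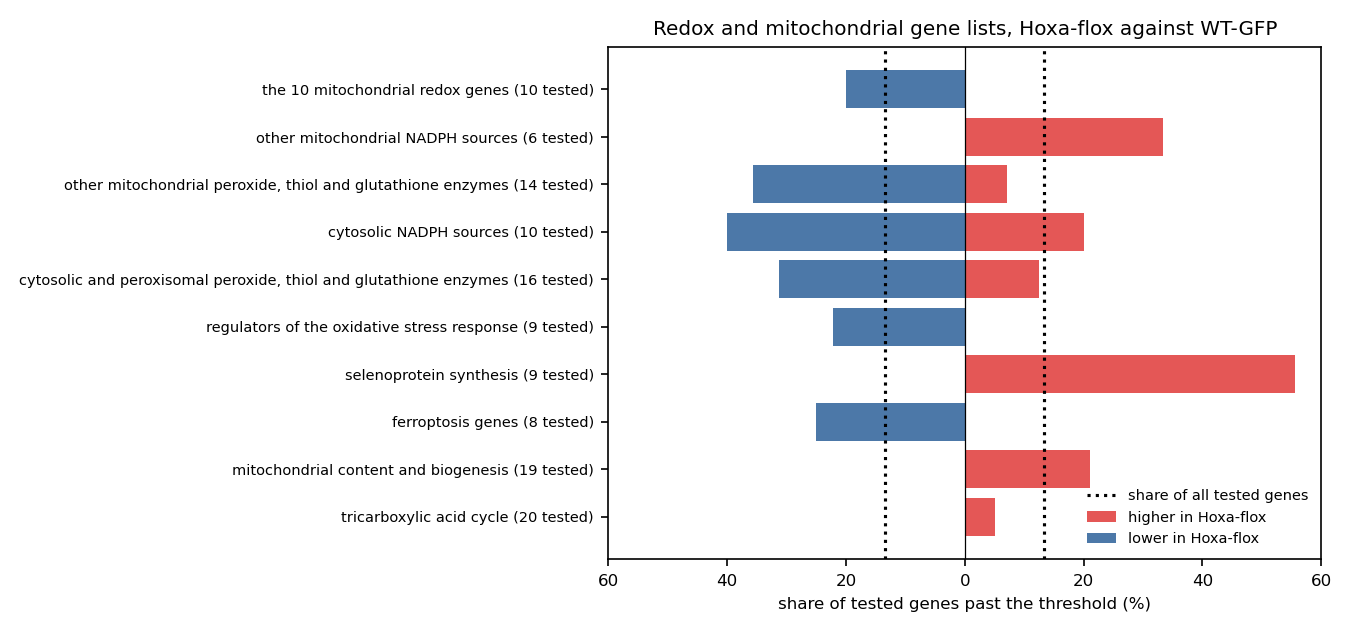
Share of the tested genes of each list that were higher (right) or lower (left) in Hoxa-flox than in WT-GFP; dotted lines are the shares over all tested genes (13.3% and 13.5%). The 10 genes reach the left side through *Nnt* and *Gsr* alone. The lists labelled as NADPH sources hold genes of NADPH pathways, not all of which make NADPH themselves. Compartments are those of the list labels, and not every gene is confined to the compartment named.

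The genes whose pattern over the 12 libraries was most like that of *Nnt* were *Nln* (r = 0.992), *Tfec* (0.989), *Agps* (0.987), *Mtmr6* (0.986) and *Tmem131* (0.985). In all, 765 of 13168 genes had r over 0.9 with *Nnt*, and many genes differ between the genotypes. Among the other 9 members, *Gsr* came closest (0.88) and *Idh2* ran opposite (-0.78).

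Several markers of mature myeloid cells were lower in the floxed libraries, as *Nnt* and *Gsr* were. The labelled cell type was checked on 11 genes of myeloid progenitors, of which 10 averaged at least 1 FPKM in the WT groups and 11 in the floxed groups. Levels of several differed between the genotypes: from WT-GFP to Hoxa-flox *Kit* went from 5.25 to 35.3 FPKM, *Cd34* from 2.03 to 68.9, *Mpo* from 292 to 13.1 and *Myb* from 470.1 to 208. From WT-Cre to Hoxa-del *Kit* went from 4.05 to 31.1 FPKM, *Cd34* from 2.11 to 61.2 and *Myb* from 469 to 206. *Mpo* overlapped there, at 180 to 195 FPKM in WT-Cre and 12.5 to 407 in Hoxa-del. Of 7 macrophage markers, 7 averaged at least 1 FPKM in each WT group and 2 in each floxed group, with summed levels of 280 to 321 FPKM in WT and 53.9 to 229 in floxed libraries, and *C1qc* at 0 in Hoxa-del. The 2 that remained, *Adgre1* and *Cd68*, did not follow the other 5: *Adgre1* averaged 41.5 and 47.0 FPKM in the WT groups and 79.8 and 52.9 in the floxed groups, and *Cd68* 112 and 106 against 92.6 and 56.2. These floxed means hide a wide spread between libraries. In rising order *Adgre1* read 42.9, 97.1 and 99.4 FPKM in Hoxa-flox and 29.2, 34.3 and 95.3 in Hoxa-del. *Cd68* read 23.1, 126 and 129 FPKM in Hoxa-flox and 22.7, 24.4 and 121 in Hoxa-del. The 8 late neutrophil markers summed to 5802 to 6422 FPKM in WT and 144 to 1737 in floxed libraries. The 5 megakaryocyte markers summed to 147 to 170 and 4.89 to 13.8 FPKM. Markers of T and B cells (7, at most 3.15 FPKM in sum) and erythroid cells (5, at most 5.59) were near 0 in all groups, and the 8 of stroma and endothelium reached 10.1 FPKM in a Hoxa-flox library. The part of mature cells in the levels of *Nnt* and *Gsr* was not tested, and fewer cells of a type cannot be told apart from less RNA per cell in bulk samples.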

How the data were processed

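Total RNA of 12 samples was isolated with TRIzol, and stranded libraries depleted of ribosomal RNA were sequenced on a NextSeq 500, per the labels' protocols. The deposited table has 28042 rows and 1 column per library. Per the submitters' processing notes, which give neither role nor order, the tools were Cuffdiff 2.2.2.20150701, Cufflinks and STAR and the builds mm10 and GRCm38. No unit is given; the deposited values were taken as FPKM, the unit Cufflinks gives. How libraries were scaled and which annotation was used is not given in the sources used here.

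For 1855 symbols with several rows, only the row of highest mean entered. Genes averaging under 0.3 FPKM served to estimate depth: their ratios between libraries fell on ratios of whole numbers, within 0.02 on the log2 scale, for 55.6% to 63.0% of values, so depth is approximate. The test was limma-trend (limma 3.58.1 in R 4.3.3) on log2(FPKM + 1), fitted once to the 12 libraries as 4 groups and adjusted by Benjamini-Hochberg over the 13169 genes averaging 1 FPKM or more. Low genes change by more than this scale shows. The script was tested on simulated data with normal spread and no sets of libraries, in which a small part of the genes was altered. At a set log2 difference of 1 it recovered 54% of altered genes for Hoxa-flox against WT-GFP and 47% for Hoxa-del against WT-Cre. It recovered 32% for Hoxa-del against Hoxa-flox and 45% for WT-Cre against WT-GFP. At a log2 difference of 2 the shares were 89%, 84%, 78% and 84% in this order. Many differences of 1 on the log2 scale can thus be missed in each of these comparisons. Between the genotypes far more genes passed than were altered in the simulation, and the floxed libraries formed sets. The recovered shares need not hold there. Tables were made with pandas 2.3.3 and numpy 2.4.6 in Python 3.11.15. Coordinates and overlaps are from GENCODE M21, matched by symbol; 1 overlap is not reported here.

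As alternatives the tests were repeated with a pseudocount of 0.1, without a filter, with upper-quartile rescaling, with the replicate number as a block, with array weights, on only the groups compared, with the library set as a term, with each library left out in turn and, chosen after seeing the data, on each set of floxed libraries alone. The genes, lists and tests were chosen with earlier results of these data known. Named were the 10 genes, from each other list up to 3 genes that passed with the smallest adjusted p in Hoxa-flox against WT-GFP, and the 5 genes most correlated with *Nnt*. *Shmt2*, *Trmt112*, *Gm24727* and the tested neighbours of *Nnt* were named after their values were seen. The origin of the replicates (cultures, mice) is not given, and p-values then describe the spread between libraries alone, which may be technical.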

Additional observations from a re-analysis of the deposited data

How the results depend on the processing

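*Nnt* kept its direction and its call in the 14 alternatives of each comparison between genotypes (log2 difference -1.35 to -0.86 against WT-GFP and -1.69 to -1.33 against WT-Cre; adjusted p up to 0.00294 and 0.00167, limma). *Gsr* kept its call in 14 of 14 and 13 of 14 (-0.86 to -0.56 and -0.61 to -0.52; adjusted p up to 0.0237 and 0.0707, limma). The number of the 10 genes that passed moved from 2 in each of these comparisons to 9 and 5 with array weights, whose weights did not fully converge, to 9 and 7 with the low *Mki67* libraries only and to 5 and 6 with the high *Mki67* libraries only. Over all tested genes the shares moved as well, to 69.8% and 36.5%, 56.4% and 57.6%, and 42.7% and 45.7%. Fitted on Hoxa-del and WT-Cre alone, 1 gene passed, where 18.2% of all genes passed. With array weights it moved from 0 to 4 for Hoxa-del against Hoxa-flox and from 0 to 2 for the interaction, beside 39.3% and 26.2% of all genes. With 1 library left out the counts ran from 2 to 2, 2 to 3, 0 to 2, 0 to 0 and 0 to 0 for Hoxa-flox against WT-GFP, Hoxa-del against WT-Cre, Hoxa-del against Hoxa-flox, the WT groups and the interaction. With the replicate block the 5 counts were 2, 2, 0, 0 and 0, and the block changed no call of a single gene. The numbers were not taken to pair the libraries: r was over 0.1 in 3 of 18 same-numbered pairs, and in 7 of 18 the best match was the own number. The highest were Hoxa-flox 3 with Hoxa-del 3 (0.72) and Hoxa-flox 2 with Hoxa-del 2 (0.60), which each share a set, while Hoxa-flox 1 with Hoxa-del 1, of different sets, had -0.30.

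Directions turned for differences that had not passed. With array weights this held for *Me2* (-0.22) in Hoxa-flox against WT-GFP, *Gpx4* (-0.30) in Hoxa-del against WT-Cre, *Nnt* (0.089) in Hoxa-del against Hoxa-flox, and *Prdx5* (-0.85), *Idh2* (-0.035) and *Gsr* (-0.038) in the interaction. With the low *Mki67* libraries only, *Me2* was at -0.25 against WT-GFP, and *Me2*, *Sod2* and *Prdx5* were at -0.025, 0.091 and 0.40 against WT-Cre. With the high *Mki67* libraries only, *Gpx4* and *Sod2* were at -0.35 and 0.10 against WT-GFP, and *Gpx4* and *Txn2* at -0.46 and -0.036 against WT-Cre. With the library set as a term, *Me2*, *Prdx5* and *Gsr* were at -0.063, 0.33 and 0.0032 in Hoxa-del against Hoxa-flox, and *Me2*, *Txn2* and *Gpx4* at -0.029, 0.064 and 0.24 in the interaction. The cause was not tested.

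With 1 library left out, directions turned within these ranges. For Hoxa-del against WT-Cre they were -0.46 to 0.30 for *Gpx4*, -0.11 to 0.12 for *Sod2* and -0.036 to 0.27 for *Txn2*. For Hoxa-del against Hoxa-flox they were -0.27 to 0.0073 for *Idh2*, -0.019 to 0.42 for *Me2*, -0.62 to 0.28 for *Prdx5* and -0.15 to 0.31 for *Txnrd2*. *Me2* ran from -0.25 to 0.19 in Hoxa-flox against WT-GFP and from -0.072 to 0.01 in WT-Cre against WT-GFP. In the interaction the ranges were -0.65 to 0.11 for *Gpx4*, -0.019 to 0.14 for *Gsr*, -0.029 to 0.24 for *Idh2*, -0.28 to 0.0031 for *Prdx3*, -0.45 to 0.44 for *Prdx5*, -0.26 to 0.049 for *Txn2* and -0.39 to 0.067 for *Txnrd2*. Of 710 alternative values of single genes, 627 kept direction and side of the threshold. Depth limits *Nnt* least in WT-GFP 3 (1973 estimated fragments) and most in Hoxa-del 2 (224).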
